A study of Mus musculus with 17 samples.

Results

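Splenic regulatory T cells (Tregs) that overexpress Nfkbid were compared directly with Tregs that lack it. The comparison took the 6 libraries of the Nfkbid transgenic mice and the 5 libraries of the Nfkbid knockout mice, 11 of the 17 libraries in the series, and left the 6 control libraries out of every fit. All came from NOD mice, an inbred strain that develops autoimmune diabetes, carrying a Foxp3-GFP reporter. CD4+ cells of the spleen were enriched and GFP+ cells were then sorted. The transgenic group is genotype NOD-60A Tg+ and the knockout group is NOD-Nfkbid-KO. Each transgenic library was made from 1 sample, whereas each knockout library was a pool of 2 samples, so genotype and pooling cannot be told apart in any result below. The labels put all libraries in 1 batch, but the library numbers in the deposited headers run in separate series for the transgenic and the knockout libraries, and what these mark cannot be told apart from genotype either. The labels give neither ages nor the promoter that drives the transgene, and they do not say that replicates are separate animals. The p-values therefore measure the spread between these libraries.

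Nfkbid encodes an atypical inhibitor of the NF-kB family. It acts in the nucleus, where it binds NF-kB dimers and can raise or lower transcription of their targets. In T cells it is known as a factor that helps induce Foxp3, the transcription factor that defines Tregs, and NF-kB signalling through Rel supports Treg development and the effector Treg state.

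The deposited table has 47643 rows named for genes, and for many of them the counts do not look like those of that gene. Counts fell best on exons when each row was moved along GRCm38 by a distance that grew along the chromosome. Rows called genes in register (3223 rows) are given by gene name. Under each of 8 settings of this shift, at least 67 of their moved exon bases lay on the named gene. That gene also held most of the moved bases that fell on any exon. Mitochondrial genes count as in register. Outside mitochondrial DNA, only 347 of these rows kept most of all their exon bases on the gene, so the counts of many cover a part of it. Another 6601 rows lay on 1 other gene under all 8 settings, and these are given as the row together with the gene that it lay on. As a check, some broadly transcribed genes were taken out of the class that carried most weight in the estimate. They still entered it with the lower weight of other protein-coding genes, so the check is not independent of the estimate. The 163 rows beyond the first 20 Mb that lay on them, once moved, had a median mean count of 51.8. The 308 rows that lay on such genes unmoved had a median of 2.18, and a move the other way gave 12.4. The shift is an estimate settled after the data had been seen. Towards the start of several chromosomes it depends on limits set on the shift, and this is said beside the genes described below whose placing changes without them.

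Library totals were 3210568 to 3366515 counts in the transgenic and 3462586 to 3705953 counts in the knockout libraries, without overlap (p = 0.00433 in a two-sided exact permutation test, the smallest it allows), and 3 counts corresponded to 0.81 to 0.934 CPM (counts scaled to library size). Transgenic libraries had counts above 0 in 16261 ± 368 rows (SD, n = 6) and knockout libraries in 14373 ± 1070 (SD, n = 5), a difference with p = 0.013 in a two-sided exact permutation test. At counts of at least 5 the order turned, with 10955 ± 301 rows against 11090 ± 452 (p = 0.567, exact permutation test). Knockout replicates 2, 3 and 5 held the fewest rows above 0, between 13476 and 13802. The mitochondrial share of counts was 21.7 ± 1.84% in the transgenic and 24.7 ± 2.49% in the knockout libraries (p = 0.039, exact permutation test; 4 library values were compared by this test, with unadjusted p). With knockout replicates 2, 3 and 5 left out the difference in share was -0.57 percentage points (exact permutation p = 0.643). Transgenic replicate 1 had the highest mitochondrial share of its group, 24.8%.

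**Figure D1:**
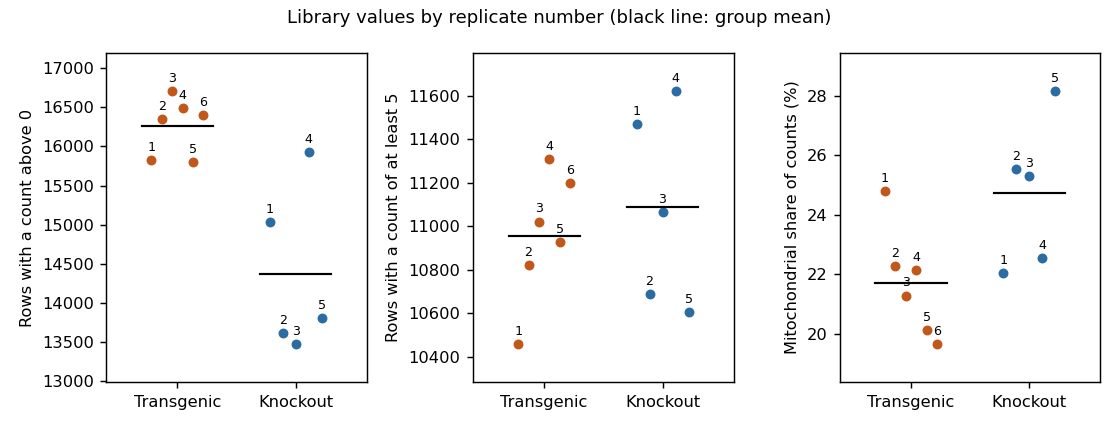
Rows with a count above 0, rows with a count of at least 5 and the mitochondrial share of counts (percent), for each library with its replicate number; axes do not start at 0 and black lines are group means. Knockout replicates 2, 3 and 5 sit between 13476 and 13802 rows above 0, under every transgenic library, while the groups overlap at a count of at least 5.

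The labels were checked first. Foxp3 was in register and its level was alike in both groups: the transgenic libraries ran from 278 to 333 CPM with a median of 308, and knockout replicates 1 to 5 were at 337, 248, 346, 318 and 276 CPM. The groups overlapped, and the log2 fold change, transgenic minus knockout in every case below, was 0.01 ± 0.11 (SE; adjusted p = 0.97). Cells of both groups were sorted by the Foxp3-GFP reporter, so an alike Foxp3 level cannot check the genotype labels. The row named Nfkbid held few counts. Its level was 6.81 to 10.7 CPM in the transgenic libraries and 8.16, 2.82, 5.54, 2.21 and 4.43 CPM in the knockout libraries, again overlapping, with a log2 fold change of 0.86 ± 0.33 (SE; adjusted p = 0.14).

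The row that separated the groups most clearly by its p was the neighbouring Tyrobp row, which lies at chr7:30413760-30417585 (GRCm38). It ran from 405 to 769 CPM with a median of 616 in the transgenic libraries, and stood at 14.2, 9.71, 13.3, 12.2 and 12.04 CPM in knockout replicates 1 to 5. No library of either group came near the other group. The log2 fold change was 5.65 ± 0.19 (SE; adjusted p = 2.1e-10), a 50.4-fold difference. Tyrobp itself encodes the signalling adaptor DAP12 of natural killer and myeloid cells. Moved by the estimated 11.5 kb, the exons of this row lay on Nfkbid in 8 of 8 settings, with 240 bases of overlap. Without the limits on the shift the row stayed on Tyrobp, and the Nfkbid row, which otherwise lay on Aplp1, stayed on Nfkbid. Which gene the Tyrobp row counts thus rests on those limits. The Hcst row beside it, named for the DAP10 adaptor, behaved in the same way: 114 to 203 CPM in the transgenic libraries against 0, 1.25, 1.38, 0.83 and 5.7 CPM (log2 fold change 6.52 ± 0.43, SE; adjusted p = 2.1e-07), with no clear gene under it. Within 250 kb of Nfkbid 22 rows were tested, of which 4 were higher in the transgenic libraries (Thap8, Tyrobp, Hcst and E130208F15Rik, named as rows after their values were seen) and 0 were lower. Over all 9337 tested rows 4.5% were higher and 2.47% lower. Of the listed markers of the cells that use those adaptors, 2 of 10 NK cell and 1 of 13 myeloid genes had a row lying on them. The presence of these cells was therefore not tested. The rows on the NK cell genes Gzma and Klrd1 summed to 0 to 2.3 CPM in the transgenic and 0 to 2.2 CPM in the knockout libraries. The row on Spi1, a myeloid factor, had 0 CPM in all 6 transgenic libraries and at most 1.1 CPM in the knockout libraries.

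**Figure D2:**
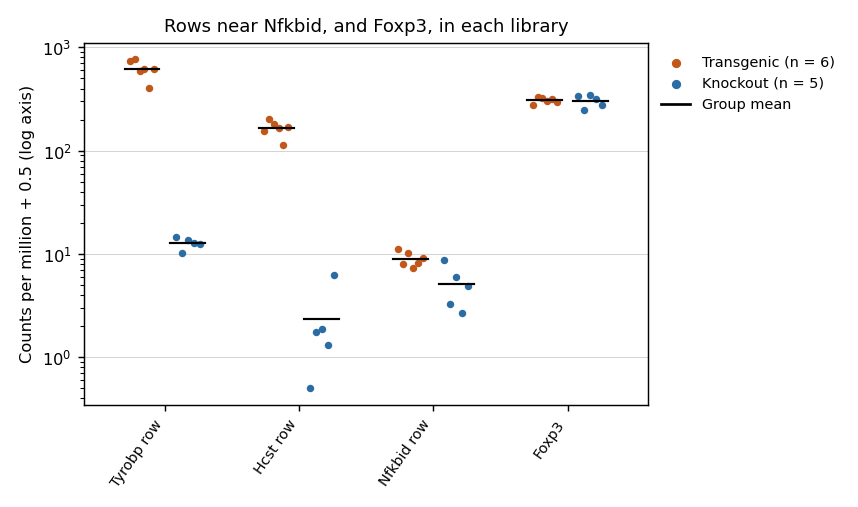
Level in CPM plus 0.5, on a log axis, for the Tyrobp, Hcst and Nfkbid rows and for Foxp3; each point is 1 library and black lines are group means. The Tyrobp row is at 405 to 769 CPM in transgenic and at 9.71 to 14.2 CPM in knockout libraries, while the groups overlap for the Nfkbid row and for Foxp3.

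Over the table, 9337 rows were tested, of which 420 (4.5%) were higher and 231 (2.47%) lower in the transgenic libraries at an adjusted p under 0.05. Among the 1718 genes in register 79 (4.6%) were higher and 47 (2.74%) lower. In 607 of the 9337 rows (6.5%) the groups did not overlap, and this share was 6.75% for genes in register and 6.69% for rows on another gene. Of the 3436 tested rows that lay on another gene, 150 (4.37%) were higher and 102 (2.97%) lower. The median log2 fold change was -0.01 over all rows and -0.03 over genes in register. Fewer lower than higher calls held under every scaling tried, but the count of lower calls moved with the libraries used: it was 109 to 478 with 1 library left out, the highest without transgenic replicate 1 and the lowest without transgenic replicate 5, and 95 without knockout replicates 2, 3 and 5 together.

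**Figure D3:**
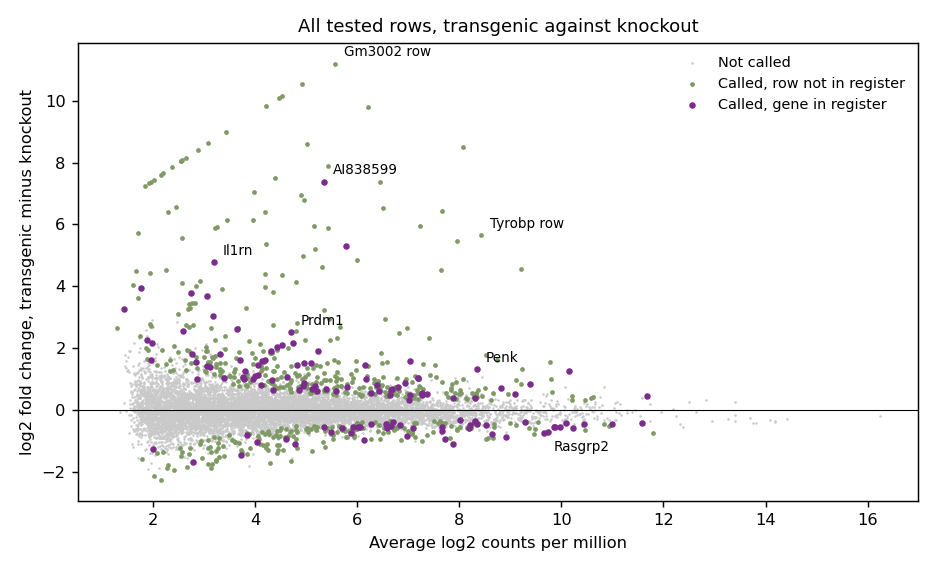
Log2 fold change, transgenic minus knockout, against average log2 CPM for 9337 tested rows; purple points are called genes in register, green points other called rows, grey points rows not called. The largest differences are all on the higher side, up to 11.2 for the Gm3002 row, and the lower calls lie within a few log2 units of 0.

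Of the 20 gene lists, that of DNA replication and cell division had the highest share of members called higher among lists with at least 5 summed genes. Of its 28 listed genes 13 had a tested row in register or lying on them, through 14 rows. Of the 4 genes in register 3 were higher and 0 lower, and 10 of 10 rows lying on other members were higher, against 4.6% and 4.37% of rows called higher in those classes. Counts summed by gene gave 12 of 13 genes higher, with a median log2 fold change of 1.0 against -0.02 over 4366 summed genes, of which 5.54% were higher and 3.83% lower. Tyms, the thymidylate synthase gene, was the one not called (log2 fold change 0.62 ± 0.22, SE; adjusted p = 0.12). The summed level of the list was 1427 to 2322 CPM in the transgenic and 808 to 992 CPM in the knockout libraries, without overlap. In bulk RNA, more cycling cells and more of these transcripts per cell cannot be told apart.

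The promoters of a pair of these genes are shown because they carry the binding word of E2F factors, which are known to switch on replication genes, and because both genes were higher. The words TTTCCCGC, TTTCGCGC, TTTGCCGC and TTTGGCGC were searched on both strands in the 250 bases before the start (RefSeq promoters, GRCm38.p6), and matches, which may overlap, are in capitals. The first promoter is chr1:128359706-128359955 and the second is chr5:138171884-138172133, both on the minus strand and printed 5′ to 3′.
Mcm6: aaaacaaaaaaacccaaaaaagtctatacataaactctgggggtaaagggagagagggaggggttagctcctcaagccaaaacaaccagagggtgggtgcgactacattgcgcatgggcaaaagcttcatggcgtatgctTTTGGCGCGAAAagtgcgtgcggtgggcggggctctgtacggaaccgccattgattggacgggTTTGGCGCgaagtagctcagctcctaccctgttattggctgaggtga
Mcm7: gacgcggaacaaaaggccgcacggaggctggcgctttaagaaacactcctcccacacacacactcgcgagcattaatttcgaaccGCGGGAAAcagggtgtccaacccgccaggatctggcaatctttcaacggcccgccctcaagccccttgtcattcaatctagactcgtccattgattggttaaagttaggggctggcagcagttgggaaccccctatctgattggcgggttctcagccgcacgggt
Mcm6 held 3 matches and Mcm7 held 1. The other 9 promoters found for the 13 tested genes, those of Mcm2, Mcm3, Lig1, Uhrf1, Top2a, Mki67, Birc5, Ccnb1 and Tyms, held 0. That is 18.2% of 11 promoters, beside 3.95% of the promoters of all genes with a tested row and 1.91% of all 27025 promoters. A match describes letters and not a bound site.

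Mcm2 to Mcm7 encode the hexameric helicase that opens DNA at replication origins. The Ubxn4 row, lying on Mcm6, ran from 130 to 194 CPM with a median of 157 in the transgenic libraries, and was 70.3, 79, 84.4, 91.5 and 76 CPM in knockout replicates 1 to 5. Every transgenic library was above every knockout library, with a log2 fold change of 1.00 ± 0.12 (SE; adjusted p = 0.00011). The Zkscan1 row, lying on Mcm7, was at 430 to 544 CPM against 271 to 349 CPM, a smaller difference of 0.54 ± 0.10 (SE; adjusted p = 0.0041), also without overlap. The Podxl2 row on Mcm2 was at 158 to 214 against 98.5 to 125 CPM (0.76 ± 0.12, SE; adjusted p = 0.00091). Both members in register did likewise. Mcm4 was at 118 to 161 CPM in the transgenic libraries and at 93.2, 63.9, 73.9, 99.8 and 73.2 CPM in the knockout libraries (0.74 ± 0.13, SE; adjusted p = 0.0026; 0.52 and 0.053 without knockout replicates 2, 3 and 5). Mcm3 was at 19.8 to 31.6 CPM against 8.43, 14.1, 13.3, 10.8 and 17.7 CPM (0.96 ± 0.21, SE; adjusted p = 0.012). Gmnn, which encodes geminin, the inhibitor of origin licensing, was among the 12 genes in register with the highest fold changes, with a mean of 13.9 CPM in the transgenic and 3.91 CPM in the knockout libraries (1.82 ± 0.29, SE; adjusted p = 0.0011). Lig1, the ligase that joins Okazaki fragments, was at 15.9 to 27.2 CPM against 8.87 to 14.7 CPM (0.83 ± 0.19, SE; adjusted p = 0.016).

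The Rara row, lying on Top2a, which encodes the topoisomerase that untangles sister chromosomes, ran from 109 to 166 CPM in the transgenic libraries and was 39, 38.9, 66.2, 42.3 and 33 CPM in the knockout libraries (log2 fold change 1.53 ± 0.18, SE; adjusted p = 8.9e-05). The Plin3 row, lying on Uhrf1, which maintains DNA methylation at replication forks, was at 14.1 to 30.7 CPM against 5.27, 1.57, 4.71, 8.57 and 2.85 CPM (2.24 ± 0.34, SE; adjusted p = 0.00074). Neither row's groups overlapped. The 5830432E09Rik row, lying on Mki67, the gene of the Ki-67 proliferation antigen, was less even. It was at 122.8 CPM in transgenic replicate 1 and at 418 to 780 CPM in the other 5, and at 277, 54.5, 124, 265 and 57 CPM in knockout replicates 1 to 5. The groups overlapped through transgenic replicate 1, and the log2 fold change of 1.80 ± 0.49 (SE; adjusted p = 0.039) gave 1.04 with adjusted p = 0.25 when knockout replicates 2, 3 and 5 were left out. Rows on Stmn1 (1.21), Birc5 (1.16) and Ccnb1 (1.26) were also called higher. The Birc5 call was lost without knockout replicates 2, 3 and 5 (adjusted p = 0.054), and the Ccnb1 call, with overlapping groups, was lost under 7 of 19 alternatives, 6 of which left out 1 library. Beyond the list, and chosen after their values were seen, rows lying on Hmmr (1.67), Ncapg (the Gm43366 row, 2.75), Cep55 (1.15) and Dtl (1.45) and the gene Mcm10 in register (1.47) were called higher. The Mcm10 call was lost under 7 of 19 alternatives and the Cep55 call under 4 of 19. The Ccdc32 row on Knl1 was called too (1.92, adjusted p = 0.038), but lost its call under 8 of 19 alternatives. A second row on Ncapg, Gm43367 (1.41 ± 0.62, SE; adjusted p = 0.2), and the 1110059G10Rik row on Kif15 (1.96 ± 0.62, SE; adjusted p = 0.076) were not called. The Zfp105 row, also lying on Kif15, was called higher (1.93, adjusted p = 0.0046) and lost its call only with the replicate block. Across the list, 8 of the 10 called rows on other members and 2 of the 3 called genes in register kept their call without knockout replicates 2, 3 and 5, where the rows on Birc5 and Mki67 and the gene Mcm4 lost it and Tyms gained it (adjusted p = 0.019). All 10 and all 3 kept it without transgenic replicate 1. None of the rows on members of this list lay on another gene when the limits on the shift were removed.

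**Figure D4:**
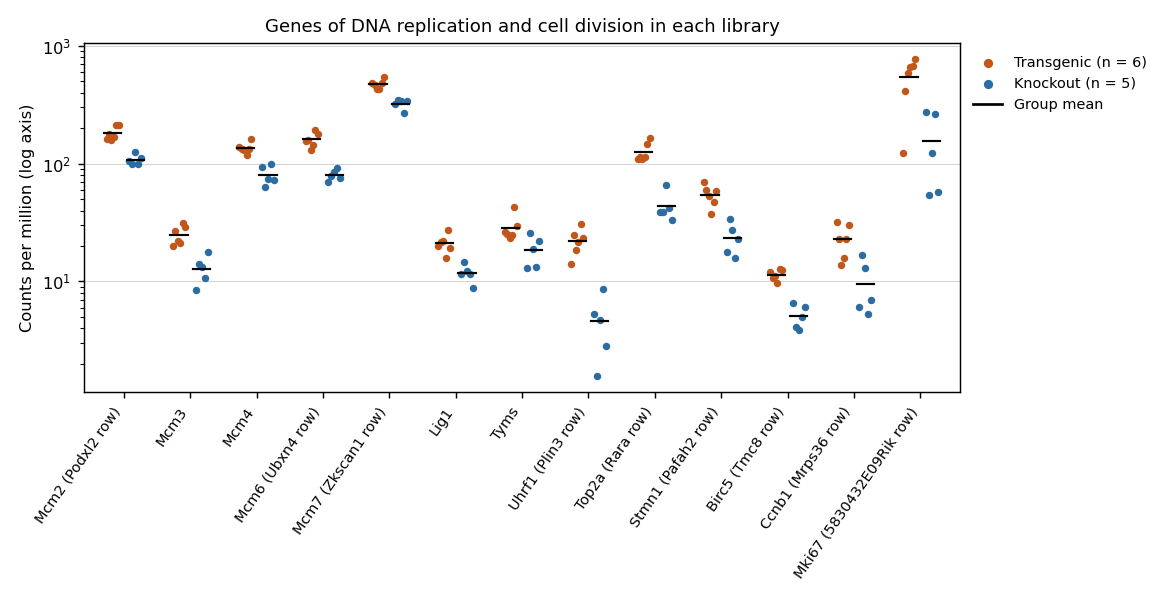
Level in CPM on a log axis for 13 genes of DNA replication and cell division, each through the gene in register or the named row lying on it; points are libraries and black lines group means. Transgenic libraries lie above knockout libraries without overlap for Mcm2, Mcm3, Mcm4, Mcm6, Mcm7, Lig1, Uhrf1, Top2a, Stmn1 and Birc5, and the groups overlap for Tyms, Ccnb1 and Mki67.

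Of the 18 effector Treg genes listed, 4 had a tested gene sum, of which 3 were higher and 1, whose values are not reported here, was lower. Prdm1, which encodes Blimp-1, a transcription factor of effector Tregs and plasma cells, was in register. It ran from 24.8 to 51.2 CPM with a median of 41.9 in the transgenic libraries, and was 7.11, 2.51, 13.3, 8.85 and 3.48 CPM in knockout replicates 1 to 5. The groups were well apart, at a log2 fold change of 2.52 ± 0.34 (SE; adjusted p = 0.00022). The Ncbp3 row, lying on Itgae, which encodes the CD103 integrin chain of tissue-homing Tregs, was at 488 to 699 CPM against 241, 171, 199, 204 and 196 CPM (1.61 ± 0.12, SE; adjusted p = 7.3e-07). Irf4, a factor needed for effector Treg differentiation, was at 34.0 ± 4.47 CPM (SD, n = 6) against 21.7 ± 4.49 CPM (SD, n = 5), with groups that overlapped (0.65 ± 0.17, SE; adjusted p = 0.032); its call was lost under 10 of 19 alternatives.

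Among molecules used in suppression, Penk, which encodes proenkephalin, was at 396 to 520 CPM with a median of 442 in the transgenic libraries and at 125, 219, 174, 119 and 252 CPM in the knockout libraries (log2 fold change 1.33 ± 0.18, SE; adjusted p = 0.0003). The Penk row lay on no exon when the limits on the shift were removed. Nt5e, the gene of CD73, which makes adenosine, was at 552 to 710 CPM against 450, 378, 497, 490 and 411 CPM (0.51 ± 0.11, SE; adjusted p = 0.0095). Both sets of values were free of overlap, but without knockout replicates 2, 3 and 5 Nt5e had an adjusted p of 0.071. The list has 19 genes, of which 4 had a tested sum, with 2 higher and 0 lower; Havcr2 (1.00 ± 0.46, SE) and the B9d2 row on Tgfb1 (0.22 ± 0.39, SE) were not called, and the latter stayed on B9d2 without the limits.

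Of the 18 genes that define Tregs, 10 had a tested sum, of which 2 were higher (Nt5e and Il2rb), 2 lower (Nrp1 and Lrrc32) and 6 not called, beside 5.54% higher and 3.83% lower over all summed genes. The effector and defining lists were not tested against each other. Ikzf2, the gene of Helios, had a log2 fold change of -0.06 ± 0.15 (SE), and Il2ra, the gene of CD25, one of -0.30 ± 0.11 (SE; adjusted p = 0.12). Gpr83 was at 894 ± 159 against 1224 ± 283 CPM (SD, n = 6 and 5; adjusted p = 0.1). The Gucy2d row, lying on Lrrc32, which encodes GARP, the surface anchor of latent TGF-beta, was lower in the transgenic libraries. It was at 31.5 to 47.5 CPM against 71.4, 51.1, 62.3, 57.2 and 64 CPM (-0.71 ± 0.14, SE; adjusted p = 0.005), and the Gm2926 row, also on Lrrc32, was lower by -1.20 ± 0.29 (SE; adjusted p = 0.023). That second row was at 49.3 CPM in transgenic replicate 1 and at 17.3 to 23.3 CPM in the other 5, and its call was lost without knockout replicates 2, 3 and 5 (adjusted p = 0.32). Nrp1, the neuropilin gene, was below every knockout library in all 6 transgenic libraries, at 2.8 ± 1.03 against 6.58 ± 2.55 CPM (SD, n = 6 and 5), but did not pass the test as a single row (adjusted p = 0.057). Nor did the Tmprss6 row, lying on Il2rb, at 0.33 ± 0.1 (SE, adjusted p = 0.06), though its groups did not overlap. The rows named Izumo1r and Ctla4 stayed on those genes in 7 of 8 settings and were singled out after their values were seen. Izumo1r, the gene of folate receptor 4, was at 230 to 280 CPM against 145, 126, 120, 139 and 151 CPM (0.92 ± 0.10, SE; adjusted p = 3.9e-05). For Ctla4, the gene of the checkpoint receptor, the groups overlapped at 71.5 to 164 against 42.3 to 85.2 CPM (0.74 ± 0.23, SE; adjusted p = 0.066). On the resting Treg list, the sums of Il7r, Satb1 and Bach2 were not called.

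**Figure D5:**
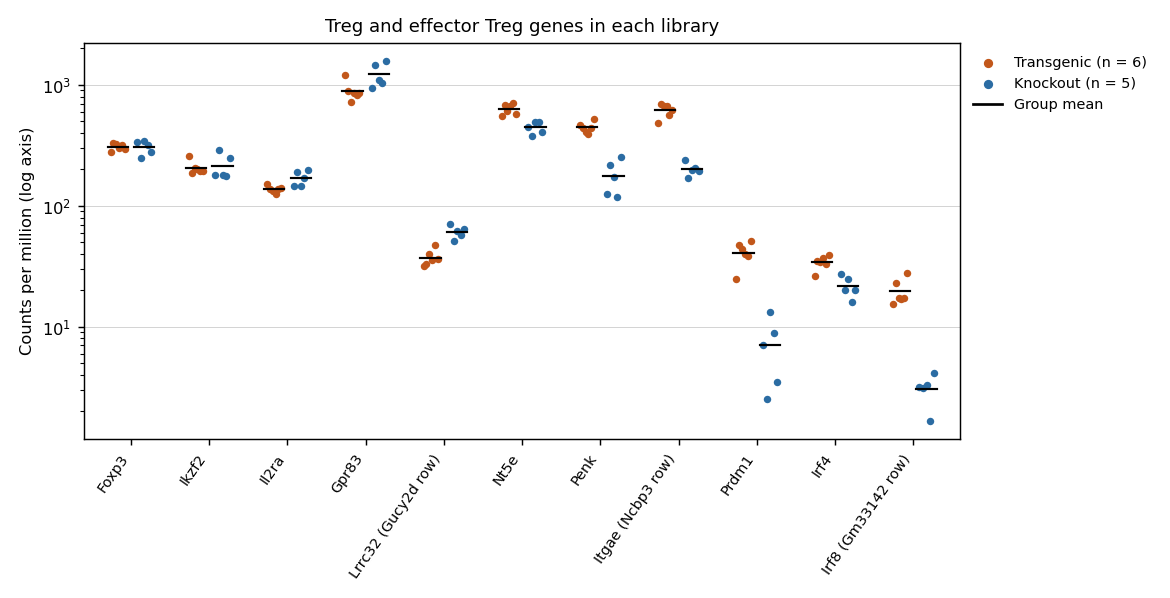
Level in CPM on a log axis for Treg and effector Treg genes, each through the gene in register or the named row lying on it; points are libraries and black lines group means. Foxp3, Ikzf2 and Il2ra overlap between the groups, whereas Nt5e, Penk, Itgae, Prdm1 and Irf8 are higher in all 6 transgenic libraries and Lrrc32 is lower.

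The genes of the NF-kB proteins and their direct regulators differed little apart from the Tyrobp row. Of 31 listed genes 14 had a tested sum, 13 of which were not called. The 1 called was Nfkbid, through the Tyrobp row, which stayed on Tyrobp without the limits on the shift. Rela (log2 fold change 0.06 ± 0.11, SE), Ikbkb (-0.19 ± 0.12, SE) and Malt1 (0.12 ± 0.14, SE) were in register, as was Rel (0.43 ± 0.31, SE), a second row of which gave 0.05 ± 0.16 (SE). Rows on Nfkb1 (-0.22 ± 0.18, SE) and Relb (0.04 ± 0.18, SE) were not called either, the latter being the Gm26890 row, which stayed on Gm26890 without the limits on the shift. These intervals leave room for modest differences. Of 15 NF-kB target genes with a sum 4 were higher and 1 lower, beside 5.54% and 3.83% over all summed genes. Tnfsf8, which encodes CD30 ligand, was at 74.3 to 116 CPM with a median of 90.7 against 38.2, 47.6, 50.9, 44.8 and 48.8 CPM in knockout replicates 1 to 5 (1.01 ± 0.13, SE; adjusted p = 0.00019). The Gm2396 row on Bcl2a1a, a survival gene with near-identical copies between which reads could be split, was at 147 to 226 against 68.3 to 125 CPM (1.02 ± 0.17, SE; adjusted p = 0.0014). The Timm13 row on Gadd45b, a stress response gene, was higher by 0.77 ± 0.13 (SE; adjusted p = 0.0022). Birc2, an inhibitor of apoptosis, was higher by 0.52 ± 0.14 (SE; adjusted p = 0.032), a call that 10 of 19 alternatives ended. The Lst1 row on Lta, the lymphotoxin gene, was lower at 1.35 ± 1.01 against 6.08 ± 2.54 CPM (SD, n = 6 and 5; adjusted p = 0.017), and was not called without knockout replicates 2, 3 and 5 (adjusted p = 0.15). Tnfaip3, the feedback inhibitor A20, was not called (-0.50 ± 0.34, SE; adjusted p = 0.44).

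Of 9 rows lying on interferon gamma response genes 5 were higher and 0 lower, beside 4.37% and 2.97% of all rows on another gene. Their median log2 fold change was 0.81 beside 0.0 over all rows on another gene. The gene in register, Ciita, was not called (-0.30 ± 0.18, SE). Counts summed by gene gave 4 of 9 genes higher and 0 lower, beside 5.54% and 3.83% over all summed genes. The Mrpl22 row on Igtp, an interferon-induced GTPase, was at 34.4 to 46.9 CPM in the transgenic libraries against 15.4 to 24.3 CPM in the knockout libraries (1.09 ± 0.17, SE; adjusted p = 0.00082). The Gm33142 row on Irf8, a factor of myeloid and B cells that also shapes Tregs, was at 15.4 to 27.9 CPM against 3.16, 3.13, 3.32, 1.66 and 4.12 CPM (2.67 ± 0.27, SE; adjusted p = 1.5e-05). Neither row's groups overlapped. The rows on Gbp6 (0.63) and Irgm1 (0.81) were called as well. The Irgm1 call, with overlapping groups, was lost under 10 of 19 alternatives (0.48, adjusted p = 0.27, without knockout replicates 2, 3 and 5), and a second row on Irgm1 was not (0.19 ± 0.19, SE; adjusted p = 0.63). Among 9 type I interferon genes with a sum, 1 was called higher, Usp18, beside 5.54% over all summed genes. Of the rows lying on this list's members 1 was called higher, the Rasal1 row on Oas2 (0.63 ± 0.16, SE; adjusted p = 0.031). That call was lost under 8 of 19 alternatives (adjusted p = 0.11 without knockout replicates 2, 3 and 5), and the Dtx1 row, also on Oas2, was not called (0.28 ± 0.23, SE; adjusted p = 0.54).

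Markers of B cells did not all move alike: 3 had a tested sum, of which 2 were higher, beside 5.54% of all summed genes, and 1 was not called. Of 12 listed markers 5 had a row lying on them, which summed to 122 to 165 CPM in the transgenic and 55 to 82.1 CPM in the knockout libraries. This sum includes rows on Cd22 and Cd79a whose placing depends on the limits on the shift, as given below. The Ighg3 row, lying on Ighd, the constant region of IgD, was at 33.5 to 41.4 CPM against 13.7, 17.2, 22.1, 13.8 and 18.4 CPM (1.11 ± 0.16, SE; adjusted p = 0.0005). The Ffar1 and Ffar3 rows, lying on Cd22, a B cell inhibitory receptor, were higher by 2.57 ± 0.27 and 3.91 ± 0.47 (SE; adjusted p = 2.6e-05 and 8.8e-05), but stayed on Ffar1 and Ffar3 without the limits on the shift. The row on Cd79a, the antigen receptor chain, was not called (-0.21 ± 0.20, SE; adjusted p = 0.61), and this row too, named Rps19, stayed on its own gene without the limits. Rows on the other B cell genes stood near the floor, with Cd79b at most at 1.8 CPM in any library. Ms4a1 was at most at 0.7 CPM in the transgenic and at most at 4.7 CPM in the knockout libraries. Prdm1 and Irf8 are also transcribed in B-lineage cells, and the part of other cells in their differences was not tested. The 3 rows on Cd4 summed to 2345 to 3499 CPM in the transgenic and 2461 to 3685 CPM in the knockout libraries, the row on Tbx21, a Th1 factor, was not called (-0.16 ± 0.18, SE), and the row on the erythroid gene Slc4a1 was at most at 0.6 CPM.

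T cell receptor signalling genes were not called by edgeR: 0 of 13 summed genes passed the test in either direction, with a median of -0.15. Of their 14 rows 4 had an unadjusted p under 0.05, and DESeq2 called 2, both lower, among them the Gm5069 row on Itpkb, a kinase of inositol phosphate signalling (-0.25 ± 0.09, SE, in edgeR). Prkcq, which encodes the kinase that links the receptor to NF-kB, was outside the list and among the 12 lowest genes in register, at 42.1 ± 5.45 against 63.4 ± 7.09 CPM (SD, n = 6 and 5; adjusted p = 0.012). In cytokine signalling, Osm, the oncostatin M gene, was at 76.8 to 136 CPM against 139, 196, 144, 148 and 199 CPM (-0.84 ± 0.17, SE; adjusted p = 0.0059), and had an adjusted p of 0.1 without knockout replicates 2, 3 and 5. Lif, whose product uses a related receptor, was higher by 0.61 ± 0.16 (SE; adjusted p = 0.036), a call lost under 10 of 19 alternatives. The Atn1 row on Tpi1, a glycolytic enzyme, was higher by 1.41 ± 0.22 (SE; adjusted p = 0.001), while the other 5 glycolysis sums were not called. Of 7 sums on the homing list, Itgae and Itgal were higher and 1 was lower, and of 7 on the apoptosis list Birc2 was higher. Over all summed genes 5.54% were higher and 3.83% lower. The 13 genes encoded in mitochondrial DNA had log2 fold changes of -0.44 to -0.05, and 0 of 13 were called by edgeR or by DESeq2, with 7 at an unadjusted p under 0.05 in edgeR.

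The 12 genes in register with the highest fold changes were led by rows almost silent in knockout libraries. AI838599, a gene model of unknown function at chr4:3242055-3258092, was at 55.7 to 101 CPM in the transgenic libraries and at 0, 0, 1.38, 0.553 and 0 CPM in knockout replicates 1 to 5, with 7 counts in all 5 (log2 fold change 7.39 ± 0.43, SE; adjusted p = 4.2e-08). Il1rn, which encodes the interleukin-1 receptor antagonist, was at 10.1 to 24.5 CPM against 0.527, 1.25, 0.553, 0.277 and 0 CPM (4.79 ± 0.47, SE; adjusted p = 1.1e-05). Both were high in all transgenic libraries. Dab2ip, a GTPase activator that restrains Ras and NF-kB signalling, was at 31.9 to 38.9 against 5.81 to 13.8 CPM (2.12 ± 0.22, SE; adjusted p = 1.7e-05). Map2, Dagla, Sh3gl3, Bcl2l13 and Alcam were higher as well, with log2 fold changes of 3.03, 2.62, 2.17, 1.91 and 1.62. For Map2 only 820 of its 16680 exon bases stayed on the gene when moved by 30.9 kb. For Bcl2l13 it was 150 of 9160 bases and for Alcam 360 of 7270, so these counts cover a part of each gene.

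Dnase1l3, an extracellular nuclease gene (log2 fold change 3.70 ± 0.65, SE; adjusted p = 0.0023), lies in a stretch of chromosome 14 where most rows were higher. Of the 59 rows tested in its first 10 Mb, 51 were higher and 0 lower, with a median of 6.4 on the log2 scale among the 51, and 50 of the 51 had Gm names. Their summed level was 3084 to 6189 CPM in the transgenic libraries and 92.9 to 235.7 CPM in the knockout libraries. Many belong to families of near-identical copies, between which reads could be split. The Gm3002 row was at 70.4 to 99.3 CPM in the transgenic libraries and had 0 counts in all 5 knockout libraries, which makes it at least 500-fold higher against a floor of 3 counts over the group. The Gm8108, Gm3739, Gm3526 and Gm3252 rows, also without a knockout count, were at least 317-fold, 239-fold, 229-fold and 191-fold higher on the same terms. In all, 17 called rows had at most 3 counts in every knockout library and at least 5 CPM in every transgenic library. Of these 13 lay in that stretch and 4 elsewhere (the Hdac9, Gm37347, Klk2-ps and Gm18537 rows). The Dguok row, lying on Actg2 and close to the Gm18537 row on chromosome 6, was at 102 to 243 CPM against 1.05, 1.25, 1.11, 1.11 and 0 CPM (7.37 ± 0.36, SE; adjusted p = 1.5e-08); it was singled out after its values were seen. Chromosome 14 had 19.3% of its tested rows called, while the other chromosomes had 5.23 to 9.9%.

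The genes in register that were lowest in the transgenic libraries changed by smaller factors. Kcnn4, the calcium-activated potassium channel of activated T cells, was at 13.2 to 22.8 CPM in the transgenic libraries against 32.4 to 42.5 CPM in the knockout libraries (log2 fold change -1.10 ± 0.17, SE; adjusted p = 0.00082). Rasgrp2, which activates the Rap1 GTPase and integrin adhesion, was at 552 to 692 against 1014 to 1094 CPM (-0.75 ± 0.09, SE; adjusted p = 9e-05). All these groups were apart. Map3k8, the kinase TPL2 that acts downstream of NF-kB activating receptors, was at 49.1 ± 8.64 against 95.3 ± 12.9 CPM (SD, n = 6 and 5; adjusted p = 0.00059). Klf6, a zinc finger factor, was at 540 to 926 against 946 to 1327 CPM (-0.71 ± 0.15, SE; adjusted p = 0.0089), and transgenic replicate 1, at 926 CPM, was nearest to the knockout values. Carns1 (-0.92), Chka (-0.72), Ripor2 (-0.68), Syne1 (-0.57) and Arhgef18 (-0.57) were also among the 12 lowest, as were Prkcq and Osm. Without knockout replicates 2, 3 and 5, Klf6, Chka, Prkcq and Arhgef18 were no longer called, with adjusted p of 0.15, 0.22, 0.095 and 0.17. The rows not in register that were lowest included the Gm13997, Gm35584, Zscan10 and Fchsd1 rows, at -1.75 to -1.64.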

How the data were processed

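Polyadenylated RNA was read over 67 bp, plus 9 bp of molecular identifier, per the series text. Bowtie2, GRCm38 and transcripts of Ensembl release 102 were used for alignment, per the submitters' processing notes and the series text. The authors deposited expected counts per gene, which were rounded here. The sources used here do not say if duplicates were removed by identifier, and floors take in counting error alone. The 11 libraries were fitted with edgeR 4.0.16 (quasi-likelihood F test, TMM, filterByExpr, R 4.3.3). The p-values were adjusted by Benjamini-Hochberg over 9337 rows, with a threshold of 0.05. SE is the log2 fold change over the square root of F, CPM is TMM-scaled, and the fit was checked on simulated counts. No libraries were identical.

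The shift of rows was estimated per chromosome by dynamic programming, with most weight on 1061 broadly transcribed genes. Other protein-coding genes, members of the gene lists among them, had a lower weight, and families such as olfactory receptors a negative weight. A setting among the 8 gave the broadly transcribed genes no extra weight. Its form, and its limits of 0.35 to 0.65 kb per Mb, were settled after several attempts and after seeing where rows of interest fell. A row was placed where its largest overlap, at least 67 bases, was with 1 gene in 8 settings. That gene also had to hold most of the moved bases that fell on any exon. Members, the 20 gene lists and the tests were chosen with earlier results of these data known. Named genes are the 12 highest and 12 lowest called genes in register (average log2 CPM at least 3, groups apart), called list members, the 5 highest and 5 lowest other rows, and label checks. DESeq2 1.42.0, other scalings and filters, a replicate block and left-out libraries were the alternatives. Replicate numbers of the labels did not pair the libraries. Single values of a few genes are not reported here, though they stay in the counts of lists and rows.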

Additional observations from a re-analysis of the deposited data

Results flagged for a closer look

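In 146 sets of values examined (1 row or library measure in 1 group), 7 had 1 library far from the rest of its group by Dixon's test; chance alone gives about 1 in 20. In the transgenic group, replicate 1 stood apart 2 times. It was low for the Gm2237 row, with 34.9 CPM against 96.05 to 128 CPM in the other 5 libraries. It was high for the Gm2926 row lying on Lrrc32, with 49.3 CPM against 17.3 to 23.3 CPM. Transgenic replicate 2 was high for AI838599, at 100.9 CPM against 55.7 to 72.4 CPM. Transgenic replicate 6 was high for the Gm3526 row, at 51.8 CPM against 35.03 to 39.8 CPM. Among knockout libraries, replicate 2 was high for Dab2ip, at 13.8 CPM against 5.81 to 7.2 CPM. Knockout replicate 3 was high for the Rara row lying on Top2a, at 66.2 CPM against 33 to 42.3 CPM. Knockout replicate 5 was high for the Hcst row, at 5.7 CPM against 0 to 1.38 CPM. In the rows where a knockout library was set apart, it was nearer to the transgenic values than the other knockout libraries and still outside their range.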

How the results depend on the processing

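Higher calls were fewer in the fit with a replicate block (193 rows and 30 genes in register) and more without transgenic replicate 1 and knockout replicates 2, 3 and 5 together, a choice added after seeing the data (789 and 149). Leaving out 1 library at a time gave 299 to 529 rows and 54 to 106 genes in register. Lower calls depended more on the setting: 414 rows and 91 genes in register with DESeq2's Wald test, 153 and 30 without a filter on low counts, 95 and 26 without knockout replicates 2, 3 and 5, 390 and 94 without those and transgenic replicate 1, 22 and 7 with the replicate block, and 109 to 478 rows and 27 to 96 genes with 1 library left out. Under a stricter register rule, added after seeing the data, 14 higher and 15 lower genes were called among the genes it kept, which are fewer by construction, and 25 lower among rows of the first 10 Mb and mitochondrial genes. The difference in mitochondrial share ran from -3.67 to -2.14 percentage points with 1 library left out and was -0.57 without knockout replicates 2, 3 and 5. The difference in rows detected ran from 1663.92 to 2277.67, was 775.67 without those 3 libraries and turned to -134.27 at counts of at least 5. For all of these the cause was not tested.

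The replicate numbers do not pair the libraries: same-numbered libraries had correlations of -0.552 to 0.406, and 2 of 10 libraries correlated best with their own number. With the replicate block 0 of 3 genes in register and 5 of 10 rows on DNA replication genes were called. Of 77 named or listed called rows, 45 kept their call under every alternative run on them and 0 reversed; 19 lost it without knockout replicates 2, 3 and 5, 1 without transgenic replicate 1 and 32 with the replicate block. Levels near 3 counts in a library, about 0.81 to 0.934 CPM, are not resolved at this depth.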

Other observations

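Rows that lie on the same gene give separate readings of it. For 498 genes under at least 2 tested rows (each at 3 or more in average log2 CPM), the log2 fold changes of the 2 most abundant rows had a Spearman's rho of 0.35 and a Pearson's r of 0.51 across genes, which are not independent replicates and share libraries and depth. Of the 9787 placed rows outside mitochondrial DNA, 96.8% of 3186 genes in register and 87.5% of 6601 rows on another gene kept their gene when the limits on the shift were removed.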
